A study of Mus musculus with 12 samples.

Results

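The interferon-inducible GTPases described here are 10 mouse genes chosen by name, the guanylate-binding proteins Gbp2, Gbp3, Gbp5, Gbp6 and Gbp7 and the immunity-related GTPases Irgm1, Irgm2, Igtp, Iigp1 and Tgtp1. All 10 were found by symbol among the 16920 genes of each deposited table, and all 10 passed the filter on low counts, which left 12064 genes for testing. The 12 RNA-seq libraries came from peritoneal macrophages, 3 in each of 4 groups, and were made to ask how loss of the m6A reader YTHDF1 changes the response of these cells to lipopolysaccharide (LPS), a component of the outer membrane of Gram-negative bacteria. The mice were C57BL/6, either wild type (WT) or labelled Ythdf1-/- (KO), a deletion made with CRISPR/Cas9, and were 6 to 10 weeks old. To elicit the macrophages, mice had been given starch broth (series record) or thioglycollate (methods of the paper), the sources differing on this. The cells were cultured and then received PBS or 1 µg/mL LPS for 6 h. The 4 groups are therefore WT PBS, WT LPS, KO PBS and KO LPS. The labels call the libraries biological replicates but name no animal, so it is not known whether each came from a separate mouse, and the p-values measure the spread between these libraries.

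Interferons induce both families. In their promoters, interferon-gamma signalling acts on the gamma-activated sequence (GAS), whereas type I interferon signalling acts on the interferon-stimulated response element (ISRE), which IRF1 and other interferon regulatory factors bind. LPS reaches the same genes in macrophages because the TLR4 receptor turns on interferon-beta, which then acts on the cells that made it. Guanylate-binding proteins are large GTPases that assemble on pathogen vacuoles and on bacterial LPS in the cytosol and help to start caspase-11 and inflammasome signalling. Immunity-related GTPases are smaller. The regulators Irgm1, Irgm2 and Igtp (also called Irgm3) sit on host membranes and hold the effectors in check, and the effectors Iigp1 (Irga6) and Tgtp1 (Irgb6) load on vacuoles and break them.

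The promoters of these genes are shown first, because they carry the letters that interferon signalling reads. RefSeq promoter windows of build GRCm38.p6, each 250 bases before to 50 bases after a start site, were given for 8 of the 10 genes, Gbp6 and Iigp1 being the others. The ISRE core was searched as GAAA, any 2 bases, GAAA, and the GAS as TTCNNNGAA, on both strands, N standing for any base. Matches to the ISRE core may overlap one another, and the GAS letters read the same on both strands. In the lines that follow, each run is written 5′ to 3′ along the strand of its gene and the capitals mark the matched letters. The first lines are the genes whose capitals hold only the ISRE core, read on the opposite strand in the guanylate-binding proteins and therefore written as its reverse complement.
Gbp2, chr3:142620596-142620621 (+): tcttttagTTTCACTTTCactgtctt
Gbp3, chr3:142559991-142560022 (+): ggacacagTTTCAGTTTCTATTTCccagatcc
Gbp5, chr3:142496761-142496786 (+): ttgtgtagTTTCAATTTCagtttaga
Gbp7, chr3:142530275-142530300 (+): gtgtgcagTTTCAGTTTCagttctcc
Irgm1, chr11:48871427-48871458 (-): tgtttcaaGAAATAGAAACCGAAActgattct
The next lines are the immunity-related GTPases in which a GAS is followed, after 2 bases, by an ISRE core. Tgtp2, the near-identical neighbour of Tgtp1, is shown for comparison.
Tgtp1, chr11:48992306-48992342 (-): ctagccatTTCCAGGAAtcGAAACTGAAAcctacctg
Tgtp2, chr11:49064265-49064301 (-): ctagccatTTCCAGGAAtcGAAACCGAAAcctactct
Igtp, chr11:58199503-58199539 (+): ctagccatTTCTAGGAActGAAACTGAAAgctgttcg
Irgm2, chr11:58214894-58214930 (+): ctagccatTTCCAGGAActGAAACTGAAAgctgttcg

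An ISRE core was present in at least 1 window of all 8 genes, against 3.99% of the 27025 genes in the RefSeq table. Gbp3 and Irgm1 each held 2 overlapping matches, and the 2 in Gbp3 lay at 1 of its 2 listed start sites. A GAS was found in 5 of the 8 genes (Gbp5, Gbp7, Tgtp1, Igtp and Irgm2), against 9.55% of all genes. The joined element, a GAS, any 2 bases and an ISRE core, occurred in 3 of the 8 and in 5 genes of the whole table, or 0.0185%. The 5 genes were Tgtp1, Tgtp2, Igtp, Irgm2 and Gm12185, all on chromosome 11. Distances from the start site varied. The ISRE core of Igtp began 34 bases before it, that of Tgtp1 77 bases before it, and that of Gbp5 165 bases before it. A match is a description of the letters, and binding was not measured.

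**Figure D1:**
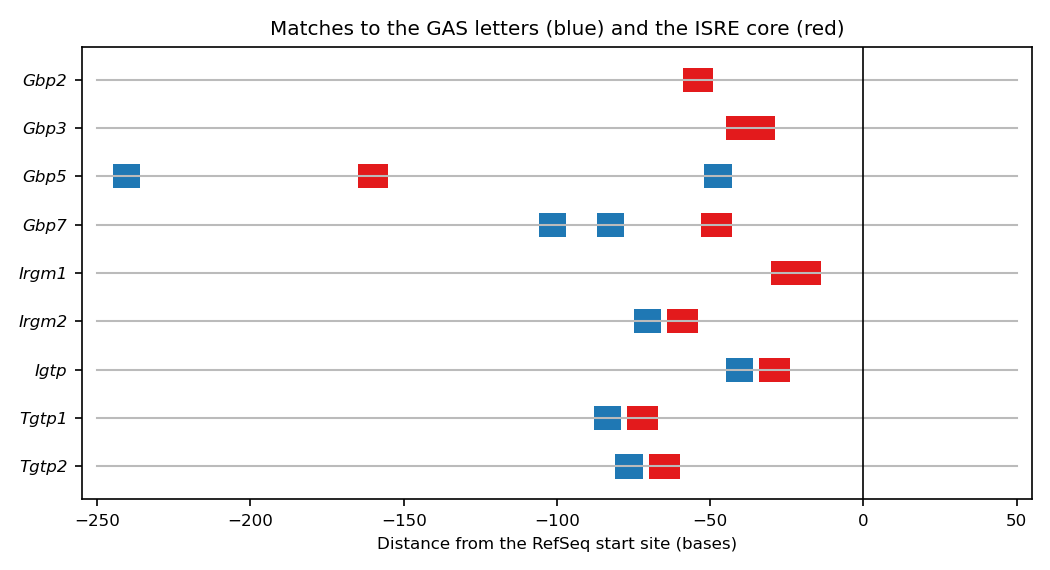
Matches to the GAS letters (blue) and to the ISRE core (red) in the promoter windows of 8 GTPase genes and of Tgtp2, placed by their distance in bases from the RefSeq start site (vertical line). In Tgtp1, Tgtp2, Igtp and Irgm2 a blue box is followed at once by a red box, at most 88 bases before the start.

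The genes stand in clusters. Gbp5, Gbp7, Gbp3 and Gbp2 follow one another on chromosome 3 of GRCm38.p6, from the start of Gbp5 at 142496934 to the end of Gbp2 at 142638008. Gbp6 lies on chromosome 5 (105270702 to 105295871), Irgm1 and Tgtp1 on chromosome 11 between 48865245 and 48992246, Igtp and Irgm2 on chromosome 11 from 58199556 to 58222783, and Iigp1 on chromosome 18 (60373616 to 60392634). Closely related copies matter for counting, since 50-base reads had been used. Of the 50-base stretches of the Tgtp1 transcripts, 91.4% also occurred in another gene of the files, and 89.4% of all of them occurred in Tgtp2. For Gbp6 this share was 66.6%, mostly in Gbp10, for Igtp 12.3%, in Irgm2, for Irgm2 8.16%, for Gbp3 4.79%, and for the other 5 at most 2.83%. The GENCODE models of Igtp and Irgm2 also overlap.

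Total counts lay between 21546274 and 22017005 per library, and a floor of 3 counts came to 0.105 to 0.187 CPM, the counts scaled to a common library size with TMM factors. The 8 macrophage markers were all above 1 CPM in every group, with a sum of 17170 to 19943 CPM per library, most of it Lyz2. Single markers differed by label under LPS. In KO LPS against WT LPS, Mertk (87.6 to 107 against 225 to 246 CPM), Csf1r (277 to 320 against 361 to 522) and Cd68 (3128 to 3326 against 3649 to 3740) were lower without overlap. Cd14 was higher (694 to 764 against 433 to 479 CPM), and the ranges of Adgre1, Itgam, Lyz2 and Fcgr1 overlapped. The KO label was not visible in Ythdf1 itself, whose level was 41.9 to 45.0 CPM in WT PBS, 55.4 to 58.1 in KO PBS, 194 to 212 in WT LPS and 192 to 205 in KO LPS. Counts over a whole gene do not show whether the edited stretch was read, so they check the label only in part, and KO below refers to the label. WT LPS replicate 1 stood apart from the other WT LPS libraries, with a mean chi-square per gene of 32.7 and 25.5 against them where they differed from each other by 3.08. In KO LPS, replicates 2 and 3 differed by 16.7, and replicate 1 differed from them by 7.43 and 5.83. KO PBS replicate 3 also differed, with 1 count of the muscle transcript Acta1 against 202 and 272 and 91 counts of Il1b against 14 and 17. No replicate pair agreed within sampling noise.

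In the resting macrophages kept with PBS, the GTPases were low but most were measurable. Their summed level was 91.3 to 94.5 CPM in WT PBS, or 0.0116% to 0.0120% of all counts. Per kilobase of transcript, Irgm1 led with 17.7 ± 0.868 CPM per kb (SD, n = 3). Igtp (5.30) and Irgm2 (4.97) followed with ranges that overlapped, then Gbp2 (4.41), Gbp3 (1.38) and Gbp7 (1.20). Gbp6 (0.588) and Gbp5 (0.485) overlapped, Iigp1 was near the floor at 0.0499, and Tgtp1 was listed at 0 in all 6 PBS libraries. The 3 membrane regulators thus stood at the head of the order. Because Tgtp2 had 17 to 48 counts in those same PBS libraries, an absent Tgtp1 transcript and reads assigned to its copy cannot be told apart.

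LPS raised all 10 genes in WT macrophages. At an adjusted p below 0.05 (edgeR quasi-likelihood test, Benjamini-Hochberg over all genes tested), 36.5% of the genes tested were higher and 40.2% lower, and the median over all of them was −0.05 on the log2 scale, against 7.70 over the 10 with Tgtp1 at its bound. For none of the 10 did a PBS library reach the level of an LPS library, where 37.1% of all genes were free of overlap in that direction. The summed level reached 7111 to 8272 CPM, or 0.558% to 0.668% of all counts.

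Among the guanylate-binding proteins, Gbp2, which coats vacuoles of Toxoplasma and Salmonella, was at 11.1, 10.5 and 11.8 CPM in the 3 WT PBS libraries and at 2294, 2749 and 2691 CPM after LPS, a 232-fold rise (log2 7.86 ± 0.14 SE, adjusted p = 1.46e-16). Gbp5, which promotes assembly of the NLRP3 inflammasome, went from 1.3, 1.22 and 1.93 to 1798, 2081 and 2043 CPM, a 1331-fold rise (log2 10.37 ± 0.22, adjusted p = 6.03e-14). It started among the lowest of the family and became one of the highest. Gbp3 went from 3.44, 3.83 and 3.86 to 706, 813 and 799 CPM (log2 7.70 ± 0.09, adjusted p = 3.41e-19). Gbp6 went from 1.45, 1.36 and 1.79 to 288, 338 and 329 CPM (log2 7.69 ± 0.12, adjusted p = 3.91e-18). Gbp7, which is known to bring NADPH oxidase and autophagy proteins to bacterial vacuoles, had the smallest rise of the 5, from 6.44, 6.69 and 7.08 to 355, 396 and 366 CPM (log2 5.79 ± 0.08, adjusted p = 1.35e-18). In these genes the lowest LPS library was always replicate 1, the one that stood apart.

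Among the 5 immunity-related GTPases, the 3 regulators had the smallest rises. Irgm1 went from 40.7, 41.5 and 37.8 to 753, 887 and 831 CPM, 20.6-fold (log2 4.36 ± 0.07, adjusted p = 7.48e-18). Irgm2, known to restrain caspase-11, went from 16.9, 18.5 and 16.4 to 341, 330 and 320 CPM, 19.1-fold (log2 4.26 ± 0.06, adjusted p = 2.39e-18). Igtp went from 10.7, 10.8 and 10.6 to 412, 448 and 442 CPM, 40.5-fold (log2 5.34 ± 0.06, adjusted p = 5.43e-19). Iigp1 and Tgtp1, which are effectors, were at or near the floor under PBS. Iigp1 had 5, 5 and 3 counts in the WT PBS libraries and stood at 125, 178 and 149 CPM after LPS, 968-fold higher (log2 9.87 ± 0.19, adjusted p = 5.09e-17). Tgtp1, at 0 counts in PBS, reached 38.9, 52.8 and 47.7 CPM and was at least 432-fold higher, taking 3 counts per library as the floor.

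The response in KO macrophages had the same direction for all 10 genes, where 38.8% of the genes tested were higher and 41.1% lower, and no PBS library overlapped an LPS library (39.7% of all genes in that direction). The median was 8.36 with Tgtp1 at its bound, against −0.04 over all genes. Gbp2 went from 5.15, 5.69 and 8.33 CPM in KO PBS to 2958, 2975 and 2951 CPM in KO LPS, a 464-fold rise (log2 8.86 ± 0.15, adjusted p = 5.34e-17). Gbp5 went from 0.805, 0.948 and 2.23 to 2485, 2421 and 2476 CPM, 1853-fold (log2 10.85 ± 0.23, adjusted p = 3.98e-14). Of the KO PBS libraries, replicate 3 was the highest for both genes. Rises of the other genes above the floor lay between log2 4.46 ± 0.07 for Irgm2 and 8.88 ± 0.13 for Gbp6. Iigp1 had 1, 2 and 3 counts in the KO PBS libraries and 5116 in all after LPS, a ratio of 1493 with a 95% exact interval of 685 to 4070 that covers counting error only. Tgtp1 rose at least 261-fold from 0 counts.

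**Figure D2:**
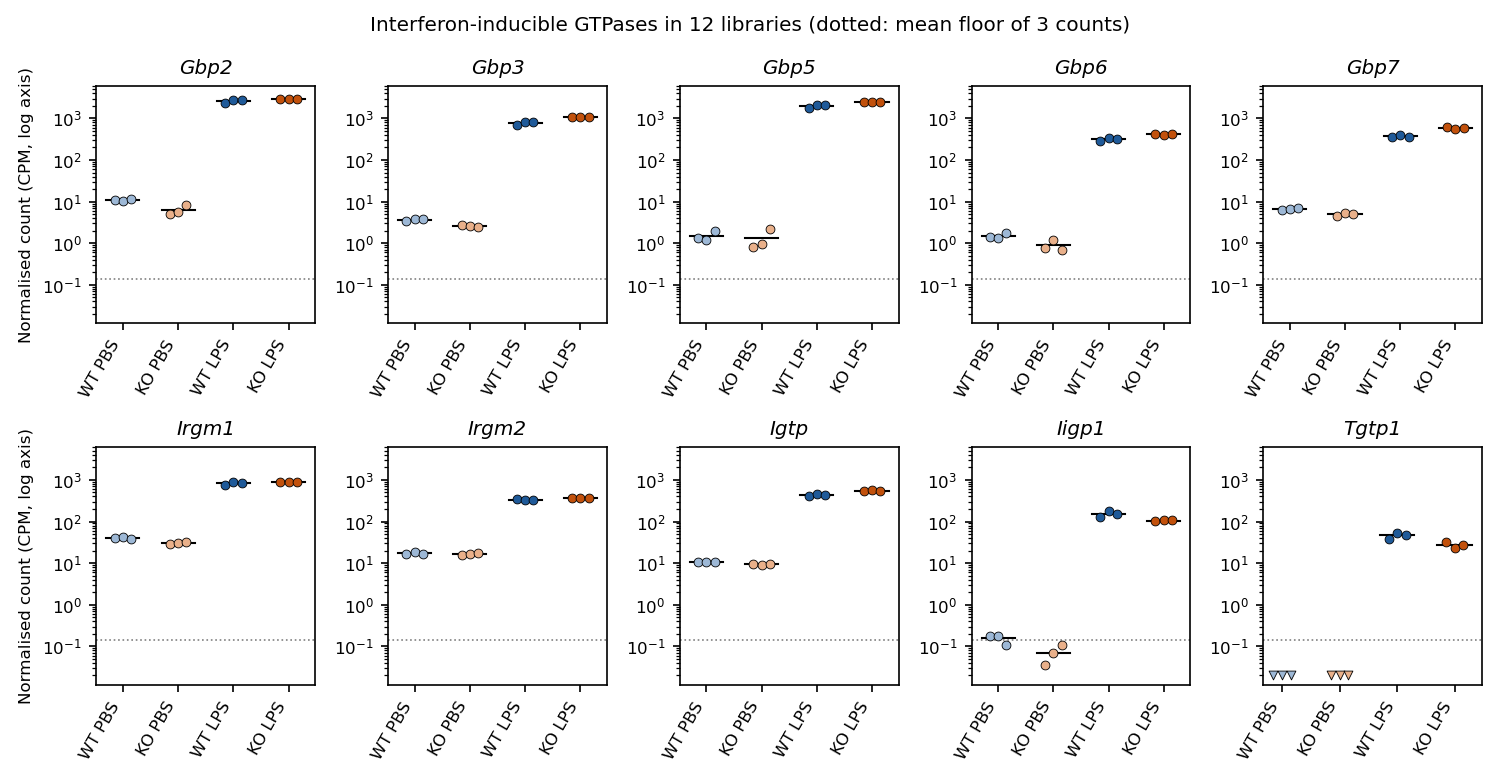
Normalised counts (CPM, log axis) of the 10 GTPases in the 12 libraries, 3 points per group with the group mean as a bar. The dotted line is the mean value of 3 counts and triangles stand for libraries at 0, drawn at the foot of the axis. In every panel the 6 LPS points lie above the 6 PBS points, and Tgtp1 is at 0 in PBS.

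LPS also changed the order of levels per kilobase. In WT LPS Gbp2 led with 1025 ± 98.3 CPM per kb (SD, n = 3), followed by Gbp5 (646 ± 50.3), Irgm1 (365), Gbp3 (288), Igtp (215), Gbp6 (122), Irgm2 (95.1), Gbp7 (66.3), Iigp1 (48.2) and Tgtp1 (16.5), and no neighbours in this order overlapped. Under PBS, 3 of the 10 had stood above Gbp2 and 7 above Gbp5. In KO LPS the order began again with Gbp2 (1177) and Gbp5 (805). Gbp3 (403) and Irgm1 (390) came next with overlapping ranges, as did Irgm2 (106) and Gbp7 (105) further down, and Iigp1 (33.7) and Tgtp1 (9.75) closed it.

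Under PBS, the KO libraries held less of several of these transcripts than the WT libraries. Of the 10 genes, 5 were lower and 0 higher, where 13.0% of the genes tested were lower and 12.3% higher. With an unadjusted p below 0.05 the count of higher genes was also 0, and it was 0 with DESeq2, which called 5 lower. The median over the 8 genes above the floor was −0.42, against 0.00 over all genes. The summed level was 67.9 to 77.2 CPM in KO PBS, below all WT PBS libraries. Gbp2 was lower by 0.80 ± 0.14 on the log2 scale (log2 −0.80, adjusted p = 0.000687), and its KO libraries (5.15 to 8.33 CPM) lay below its WT libraries (10.5 to 11.8 CPM). Groups free of overlap with KO lower made up 24.6% of all genes and 6 of the 8 GTPases above the floor. Gbp3 was lower with log2 −0.51 ± 0.11 (adjusted p = 0.00235), at 2.70, 2.63 and 2.48 CPM in KO PBS. Gbp6 was lower with −0.78 ± 0.21 (adjusted p = 0.0130) on 19 to 50 counts per library, a call that was lost without WT PBS replicate 3 (−0.65, adjusted p = 0.0646), without KO PBS replicate 1 (−0.66, adjusted p = 0.0757) or without KO PBS replicate 3 (−0.59, adjusted p = 0.0725).

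The remaining calls under PBS were Gbp7, with log2 −0.43 ± 0.09 (adjusted p = 0.00271; 4.52, 5.37 and 5.14 CPM in KO PBS), and Irgm1, with −0.41 ± 0.07 (adjusted p = 0.000487; 28.6, 30.5 and 31.5 CPM). Igtp had 9.45, 9.23 and 9.60 CPM in KO PBS and missed the threshold at −0.19 ± 0.07 (adjusted p = 0.0527), which it passed without WT LPS replicate 1 (adjusted p = 0.0309) or without KO LPS replicate 2 (adjusted p = 0.0473). Irgm2 had 16.0, 17.0 and 17.1 CPM, and its difference was −0.05 ± 0.06 (adjusted p = 0.635). Gbp5 did not pass (−0.16 ± 0.32, adjusted p = 0.759), and its value ran from −0.73 to 0.12 over the fits with 1 library left out. Without KO PBS replicate 3, the library that had 2.23 CPM of Gbp5 and the most Il1b of the KO PBS group, its difference was −0.73 ± 0.23 (adjusted p = 0.0324). Iigp1 had 6 counts in all in KO PBS and 13 in WT PBS, a ratio of 0.452 with a 95% exact interval of 0.141 to 1.28, and Tgtp1 was at 0 in both. In bulk RNA, fewer cells of a kind and less RNA per cell cannot be told apart.

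Under LPS, the GTPases differed by label in both directions. The 5 genes Gbp3, Gbp6, Gbp7, Irgm2 and Igtp were higher in KO LPS than in WT LPS, and 2, Iigp1 and Tgtp1, were lower, where 22.1% of the genes tested were higher and 19.3% lower. Tgtp1 and its more abundant copy Tgtp2 summed were at 0.13 (adjusted p = 0.280), and the effector Gm12250, outside the 10, was higher (0.24, adjusted p = 0.0201). The summed level was 9359 to 9488 CPM, above all WT LPS libraries. The median over the 10 was 0.26, against 0.00 over all genes. Groups did not overlap for 7 genes with KO higher and for 2 with KO lower, where 24.2% and 21.4% of all genes were so separated. Without WT LPS replicate 1 the counts of calls were again 5 and 2.

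Gbp7 moved most among those that were higher, at 614, 561 and 587 CPM in KO LPS against 355, 396 and 366 CPM in WT LPS, 1.58-fold (log2 0.66 ± 0.06, adjusted p = 7.17e-07). Gbp3 stood at 1094, 1052 and 1093 CPM, 1.40-fold higher (log2 0.48 ± 0.06, adjusted p = 1.09e-05). Gbp6, with 430, 404 and 430 CPM, was 1.32-fold higher (log2 0.40 ± 0.08, adjusted p = 0.000715) on 4985 to 7000 counts per LPS library, where its copy Gbp10 had 5 to 40. These 3 guanylate-binding proteins were therefore lower under PBS and higher under LPS in KO. Igtp had 527, 559 and 531 CPM, 1.24-fold higher (log2 0.31 ± 0.05, adjusted p = 0.000164). Irgm2 had 370, 362 and 374 CPM, 1.12-fold higher (log2 0.16 ± 0.05, adjusted p = 0.0286). The call for Irgm2 did not hold when libraries were scaled by upper quartiles (0.09, adjusted p = 0.196) or by their totals alone (0.07, adjusted p = 0.313), with no filter on low counts (0.16, adjusted p = 0.0556) or with only the LPS libraries fitted (0.14, adjusted p = 0.101), nor without WT LPS replicate 2 or 3 or without KO LPS replicate 1 or 3, where it was 0.14 to 0.16 (adjusted p from 0.0583 to 0.105).

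Gbp2, Gbp5 and Irgm1 did not pass under LPS. Gbp2 was at log2 0.20 ± 0.10 (adjusted p = 0.136) and Gbp5 at 0.32 ± 0.13 (adjusted p = 0.0769), although in both all KO LPS libraries lay above all WT LPS libraries. Irgm1 was at 0.10 ± 0.06 (adjusted p = 0.250), with 875, 895 and 870 CPM in KO LPS against 753 to 887 CPM in WT LPS, ranges that overlap. The spread estimate of Gbp2 and Gbp5 is shared with the PBS groups. Without KO PBS replicate 3, a library outside this comparison, Gbp2 (0.20, adjusted p = 0.0368) and Gbp5 (0.31, adjusted p = 0.00471) passed, and Gbp5 also passed when only the LPS libraries were fitted (0.30, adjusted p = 0.0122).

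Iigp1 and Tgtp1 went the other way. Iigp1 had 102, 107 and 106 CPM in KO LPS against 125, 178 and 149 CPM in WT LPS, a fold of 0.697 (log2 −0.52 ± 0.09, adjusted p = 0.000383). Without WT LPS replicate 1, its lowest WT library, the value was −0.64 (adjusted p = 3.11e-07). Tgtp1 had 31.8, 23.6 and 27.2 CPM against 38.9, 52.8 and 47.7 CPM, a fold of 0.592 (log2 −0.76 ± 0.13, adjusted p = 0.00126). Whether the sharing of reads with its copy bears on this call was not tested. Tgtp2, which held most of the counts of the pair, was at 610, 655 and 610 CPM in KO LPS against 489, 596 and 566 CPM in WT LPS (log2 0.18 ± 0.09, adjusted p = 0.120), and the pair summed, which is mostly Tgtp2, was at 0.13 ± 0.09 (adjusted p = 0.280). Gbp10, the copy of Gbp6, had 5 to 18 counts in KO LPS against 30 to 40 in WT LPS (log2 −1.29 ± 0.36, adjusted p = 0.0130).

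**Figure D3:**
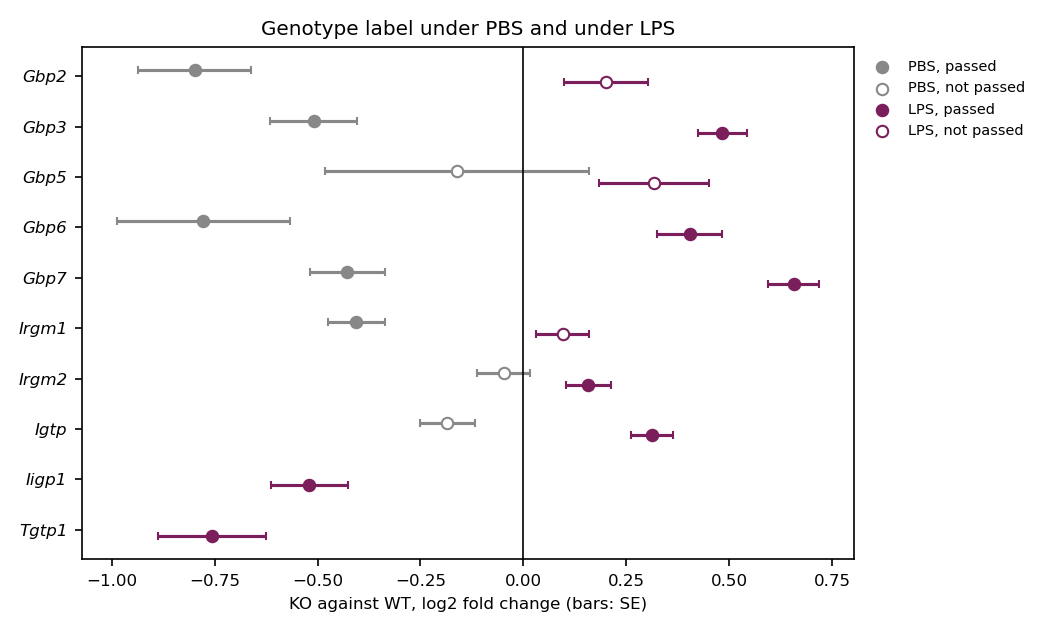
Difference between KO and WT (log2 fold change, bars show the SE) for each GTPase under PBS (grey) and LPS (purple). Filled points passed an adjusted p of 0.05 and open points did not. Iigp1 and Tgtp1 have no PBS value because a group lay at or under 3 counts per library. All 8 genes with a PBS value sit to the left of 0 under PBS and to the right under LPS, but only Gbp3, Gbp6 and Gbp7 have filled points in both. Iigp1 and Tgtp1 sit to the left under LPS.

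**Figure D4:**
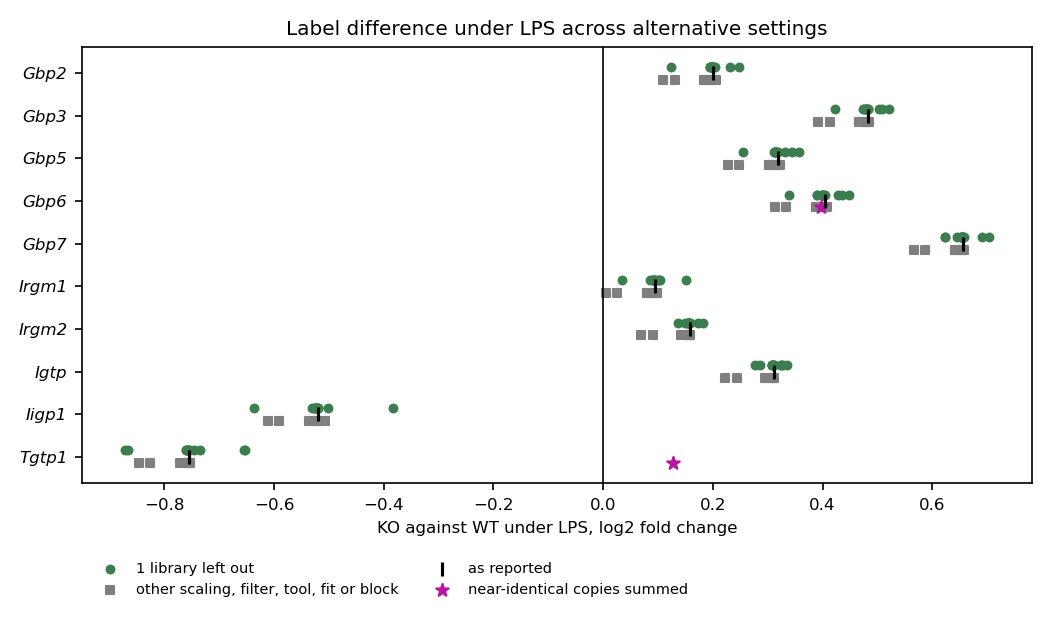
Difference between KO and WT under LPS (log2 fold change) for each GTPase as reported (bar), with 1 library left out (green), with another scaling, filter, tool, fit or block (grey squares), and with near-identical copies summed (star). Tgtp1 moves from −0.76 to 0.13 when summed with Tgtp2.

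Whether the rise after LPS differed between the labels was tested as an interaction. It was larger in KO for 6 genes and smaller for 0, where 9.78% of the genes tested were larger and 8.26% smaller, and the median was 0.75 over the 8 genes above the floor against 0.01 over all genes. DESeq2 also gave 6 and 0, and at an unadjusted p below 0.05 the counts were 7 and 0. The value was 1.18 ± 0.22 for Gbp6 (adjusted p = 0.00174), 1.08 ± 0.11 for Gbp7 (adjusted p = 7.54e-06), 1.00 ± 0.17 for Gbp2 (adjusted p = 0.00107) and 0.99 ± 0.12 for Gbp3 (adjusted p = 4.40e-05). These 4 guanylate-binding proteins thus had a rise about 1 log2 unit larger. For the regulators it was 0.50 ± 0.09 for Irgm1 (adjusted p = 0.00159) and 0.50 ± 0.08 for Igtp (adjusted p = 0.000746), and it did not pass for Irgm2 (0.21 ± 0.08, adjusted p = 0.106). Gbp5 did not pass (0.48 ± 0.35, adjusted p = 0.395) but did without KO PBS replicate 3 (1.05 ± 0.24, adjusted p = 0.00816). Of these 6 genes, Gbp2 and Irgm1 had passed by label under PBS and not under LPS, Igtp under LPS and not under PBS, and Gbp3, Gbp6 and Gbp7 under both. Without WT LPS replicate 1 the interaction was called for 7 genes, with Irgm2 added (0.23, adjusted p = 0.0435), and without KO PBS replicate 3 for 7, with Gbp5 added. Tgtp1 and Iigp1 had PBS groups at or under the floor and no usable interaction.

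**Figure D5:**
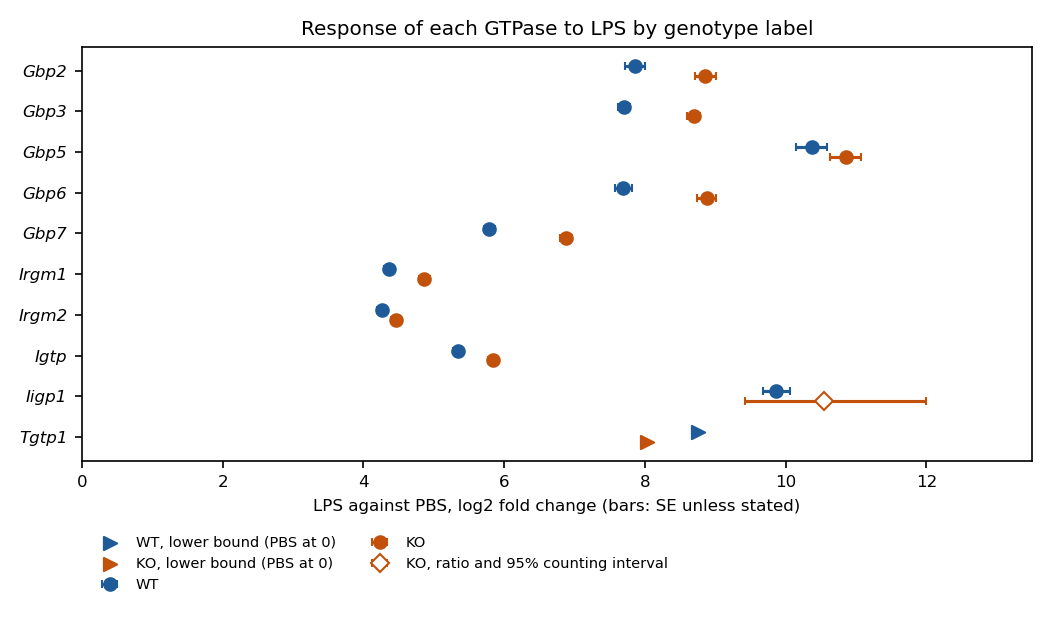
Rise of each GTPase after LPS (log2 fold change) in WT (blue) and KO (orange), with bars for the SE. Triangles are lower bounds for Tgtp1, which was at 0 in PBS, and the open diamond is a ratio with its 95% counting interval for Iigp1 in KO. The orange points of Gbp2, Gbp3, Gbp6 and Gbp7 lie about 1 unit to the right of the blue ones.

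Other members of the families gave a similar picture after LPS and a mixed one by label. Of the other guanylate-binding proteins, 5 of the 6 listed were in the files and tested (Gbp2b, Gbp4, Gbp8, Gbp9 and Gbp10), and all 5 rose in both WT and KO, where 36.5% and 38.8% of all genes did. Gbp9 rose with log2 5.07 in WT (adjusted p = 9.52e-17) and had −0.05 ± 0.09 by label under LPS (adjusted p = 0.695). Under LPS 1 of the 5 was lower in KO, Gbp10, and 0 were higher, or 1 at an unadjusted p below 0.05 (Gbp4, 0.19 ± 0.08, adjusted p = 0.0776), where 19.3% of all genes were lower and 22.1% higher. Gbp2b had 18 to 23 counts in WT LPS and 8 to 19 in KO LPS (−0.58 ± 0.37, adjusted p = 0.224). Under PBS 0 of the 5 passed by label, and 0 passed the interaction, but Gbp2b, Gbp4 and Gbp10 had PBS groups at or under the floor. Gbp9 had −0.28 ± 0.12 under PBS (adjusted p = 0.102) and an interaction of 0.23 ± 0.15 (adjusted p = 0.311). Of 13 other immunity-related and large interferon-inducible GTPases listed, 9 were in the files and tested. After LPS 7 rose and 2 fell in WT and 7 rose and 1 fell in KO, where 36.5% of all genes rose and 40.2% fell in WT and 38.8% and 41.1% in KO. By label, 2 were higher and 0 lower in KO under LPS, with 2 and 0 at an unadjusted p below 0.05, the first being about the 22.1% of all genes. Under PBS 0 of the 9 were higher and 2 lower, where 12.3% and 13.0% of all genes were. The interaction was larger for 2 and smaller for 0, where it was for 9.78% and 8.26% of all genes. Gm12250, which is Irgb10, an effector that breaks bacterial membranes, was lower in KO under PBS (−0.51 ± 0.12, adjusted p = 0.00649), higher under LPS (0.24 ± 0.08, adjusted p = 0.0201) and had an interaction of 0.76 ± 0.15 (adjusted p = 0.00205). Tgtp2 was lower under PBS (−0.73 ± 0.24, adjusted p = 0.0352) and had an interaction of 0.91 ± 0.26 (adjusted p = 0.0214). Gm12250 was thus lower under PBS and higher under LPS, like Gbp3, Gbp6 and Gbp7, whereas Tgtp2 passed only under PBS, like Gbp2. Gvin1, a very large interferon-inducible GTPase, was the other gene higher under LPS (0.70 ± 0.17, adjusted p = 0.00811), with 0.43 ± 0.18 under PBS (adjusted p = 0.115) and an interaction of 0.26 ± 0.25 that did not pass (adjusted p = 0.547). The call for Tgtp2 under PBS was lost without WT PBS replicate 1 or 2 or KO PBS replicate 1 or 2 (−0.69 to −0.48, adjusted p from 0.109 to 0.189). That for Gm12250 was lost under PBS without WT PBS replicate 1 (−0.41, adjusted p = 0.0547) or KO PBS replicate 2 (−0.34, adjusted p = 0.0503), and under LPS without WT LPS replicate 3 (0.23, adjusted p = 0.0646) or KO LPS replicate 1 (0.25, adjusted p = 0.0574).

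The ligands that induce the family were scarce at 6 h. Interferon-beta (Ifnb1) had 0 counts in all PBS libraries, 8, 13 and 16 in WT LPS and 15, 14 and 15 in KO LPS, and the difference by label did not pass (0.36 ± 0.34, adjusted p = 0.435). Interferon-gamma (Ifng) had 3, 0 and 12 counts in WT LPS, 2, 1 and 0 in KO LPS and 0 in PBS, and was too low to be tested. Of the 6 ligands and receptors tested, 4 were higher in KO under LPS and 0 lower, where 22.1% and 19.3% of all genes were, with the same counts at an unadjusted p below 0.05, among them the type I interferon receptor chain Ifnar1 (0.42 ± 0.05, adjusted p = 1.13e-05). Ifngr1, which binds interferon-gamma, fell after LPS in WT (log2 −2.20, adjusted p = 8.58e-14), from 82.1 to 84.4 CPM to 16.7 to 20.1 CPM.

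Of the 13 signalling genes reported, 4 were lower and 1 higher in KO under PBS, where 13.0% and 12.3% of all genes were, and 2 were higher and 3 lower under LPS, shares near the 22.1% and 19.3% of all genes. Irf7, which amplifies type I interferon, was lower in KO under PBS (−1.31 ± 0.21, adjusted p = 0.00113), with replicate 3 the highest of the KO PBS libraries at 62.1 CPM against 30.2 and 41.2. Irf1, an ISRE-binding factor, did not differ beyond the threshold under PBS (−0.01 ± 0.07, adjusted p = 0.912) or under LPS (−0.14 ± 0.06, adjusted p = 0.0844). Under LPS it was lower in KO without WT LPS replicate 1 (−0.18, adjusted p = 0.0119) and when scaled by upper quartiles (−0.21, adjusted p = 0.0180) or totals (−0.23, adjusted p = 0.00998). Irf8, a partner of other interferon regulatory factors in myeloid cells, stood at 206.5 CPM in KO LPS against 667 CPM in WT LPS (−1.69 ± 0.06, adjusted p = 5.87e-12), and Jak2, a kinase of the interferon-gamma receptor, was higher (0.75 ± 0.08, adjusted p = 2.18e-06). Jak2 was also the gene higher in KO under PBS (0.41 ± 0.09, adjusted p = 0.00297), and its interaction did not pass (0.35 ± 0.12, adjusted p = 0.0525). Socs1, which inhibits interferon signalling, was lower under LPS (−0.23 ± 0.07, adjusted p = 0.0113), a call lost without KO LPS replicate 3 (−0.17, adjusted p = 0.0600).

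Counts for partners of the GTPases under LPS are to be read against the 22.1% of all genes tested that were higher and the 19.3% that were lower. Of the 11 genes of the ATG8 system, which guides these GTPases to vacuoles, 1 was higher in KO under LPS and 0 lower (3 and 1 at an unadjusted p below 0.05), and the higher gene was the adaptor Sqstm1 (0.72 ± 0.07, adjusted p = 5.92e-07). Of the 9 caspase-11 and inflammasome genes, 8 were higher and 1 lower in KO under LPS. Casp4, which encodes caspase-11, was higher with 0.52 ± 0.11 (adjusted p = 0.00171), chosen after its values were seen, and Nlrp3 with 1.08 ± 0.09 (adjusted p = 1.13e-07). The adaptor Pycard was lower (−0.51 ± 0.08, adjusted p = 0.000104). Among 11 other genes that interferon-gamma induces in macrophages, 4 were higher and 3 lower, with the NADPH oxidase subunit Cybb at 0.62 ± 0.05 (adjusted p = 3.26e-07) and Cd74, of antigen presentation, at −0.51 ± 0.08 (adjusted p = 5.53e-05). Under PBS, 12.3% of all genes tested were higher in KO and 13.0% lower. The ATG8 genes gave 1 higher, Sqstm1 (0.28, adjusted p = 0.00614), and 0 lower. The caspase-11 and inflammasome genes gave 1 higher, Aim2 (0.24, adjusted p = 0.0302), a call lost in 4 of 12 fits without 1 library. They also gave 1 lower, Ninj1, which ruptures the membrane of dying cells (−0.27 ± 0.05, adjusted p = 0.000879). The other interferon-gamma-induced genes gave 0 higher and 4 lower, among them Cd74 (−0.69 ± 0.08, adjusted p = 6.82e-06) and the class II gene H2-Aa (−0.49 ± 0.08, adjusted p = 0.000289).

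Markers of cells that make interferon-gamma were near 0. The 5 NK cell markers in the files summed to at most 0.289 CPM in any library. The 6 T cell markers summed to 8.67 to 13.2 CPM in WT LPS and 4.17 to 4.59 CPM in KO LPS, nearly all of it Lck, while Cd3d, Cd3e and Cd3g had at most 2 counts in any library. Skeletal muscle markers summed to 17.8 to 35.6 CPM in the WT libraries, 0.354 to 20.4 in KO PBS and 0.428 to 0.684 in KO LPS. They were therefore low in all KO LPS libraries, but under PBS in KO replicate 3 alone, and their part in the results was not tested. Leaving that library out kept the count of lower GTPases at 5, with Gbp5 added and Gbp6 lost. The 6 mesothelial markers summed to 4.39 to 8.02 CPM in KO PBS and 8.98 to 9.69 CPM in WT PBS, without overlap, and to 6.14 to 9.89 CPM in KO LPS and 9.65 to 11.9 CPM in WT LPS. Among them Wt1 was at 0.638 to 1.44 CPM in KO PBS against 2.61 to 3.69 CPM in WT PBS. Upk3b was at 0.142 to 0.490 CPM against 0.608 to 0.822 CPM, and the PBS ranges of Msln, Krt19, Krt8 and Upk1b overlapped between the labels. The 5 mast cell markers in the files summed to 0.175 to 0.456 CPM in KO PBS against 0.644 to 0.904 CPM in WT PBS, and to 2.82 to 3.56 CPM in KO LPS against 1.02 to 1.42 CPM in WT LPS, most of it Kit, with the mast cell proteases Cpa3 and Mcpt4 at 0 in both LPS groups. The 3 eosinophil markers in the files summed to 0.995 to 1.72 CPM in KO LPS against 2.43 to 2.51 CPM in WT LPS, most of it Siglecf. Under PBS they summed to 1.52 to 2.74 CPM in KO and 2.65 to 3.54 CPM in WT. The sums by label were thus free of overlap in both conditions for mast cell markers. Under PBS this also held for mesothelial markers and for macrophage markers (18274 to 18426 CPM in KO against 17170 to 17724 CPM in WT). Under LPS it also held for T cell, skeletal muscle and eosinophil markers. The part of these cell markers in the results was not tested.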

How the data were processed

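RNA sequencing (single-end 50 bases, BGISEQ-500) gave 12 libraries, 3 per group. The authors deposited expected counts (estimated counts per gene, not scaled between libraries) in 1 table per library; the submitters' processing notes name Bowtie2, RSEM 1.3.1 and GRCm38.p6, whereas the paper's methods name STAR and HTSeq. Between 24.6% and 26.9% of the values were not whole, so reads had been shared between genes, which affects genes with near-identical copies. Counts were rounded and fitted in R 4.3.3 with edgeR 4.0.16 (filterByExpr on the 4 groups, TMM scaling, 1 robust quasi-likelihood model with 1 mean per group, two-sided tests, Benjamini-Hochberg adjustment over 12064 genes, threshold 0.05). The SE was the log2 fold change divided by the square root of F. CPM uses TMM-scaled library sizes. Where all libraries of a group had 0 counts, the fold was taken against 3 counts per library. The reads carry no molecular identifiers, so an interval or floor allows for counting error alone. Scripts were tested on simulated data.

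Members and lists were chosen with earlier results of these data known. All members are named, with Ythdf1, a short list of regulators and copies (Ifnb1, Ifng, Irf1, Socs1, Tgtp2, Gbp10, Gbp2b), and at most 2 called genes with the lowest adjusted p per list and comparison, not all of which are given; other genes are named after their values were seen. An item of these lists is not reported here. The 5 genes most like the members were ranked by Pearson correlation of log2 CPM (prior count 0.5). Positions and promoters are from RefSeq (GRCm38.p6), with all 10 members matched by gene number, and transcripts from GENCODE vM21. Alternatives covered scaling, filters, DESeq2 1.42.0, fewer libraries, a replicate block, summed copies and a log2 change over 1.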

Additional observations from a re-analysis of the deposited data

Results flagged for a closer look

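The response to LPS differed between the WT and KO libraries, by a test of the difference itself, for 6 of the GTPases. The interaction was 1.00 for Gbp2, 0.99 for Gbp3, 1.18 for Gbp6 and 1.08 for Gbp7, and it was 0.50 for Irgm1 and 0.50 for Igtp (edgeR quasi-likelihood test, adjusted p between 7.54e-06 and 0.00174). It also differed for Tgtp2 (0.91, adjusted p = 0.0214), the copy of Tgtp1, a call that was lost without WT PBS replicate 1 or 2 or without KO PBS replicate 1 or 2. With 3 libraries in a group, no test for a single outlying value was run on the genes.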

How the results depend on the processing

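All 10 rises after LPS kept their direction and call in both labels under every setting in which they were tested, and a filter of at least 10 counts in every library left 8 of them. The counts by label changed with a demand for a log2 change over 1, which left 0 of 5 lower under PBS, 0 of 5 higher and 0 of 2 lower under LPS, and 2 of 6 larger interactions (Gbp6 and Gbp7). The 2 lower genes under LPS became 0 with at least 10 counts in every library, since Iigp1 and Tgtp1 were then not tested, and 1 with copies summed, where Tgtp1 turned to 0.13. Leaving out 1 library gave 4 to 6 lower under PBS, 4 to 7 higher and 2 to 2 lower under LPS, and 6 to 7 larger interactions. Differences under PBS that changed sign did not pass where reversed: Irgm2 with library totals (0.000427), Irf1 with RLE scaling (0.00207), totals (0.0336) and DESeq2 (0.00522), and, with 1 library left out, Gbp5 (range −0.73 to 0.12, the −0.73 passing), Irgm2 (−0.0834 to 0.0104), Irf1 (−0.0579 to 0.0476) and Socs1 (−0.151 to 0.0182). The cause was not tested. Same-numbered libraries of different groups correlated at −0.0619 to 0.107, so the numbers do not pair them; the replicate block left the counts at 5 lower under PBS, 5 higher and 2 lower under LPS and 6 larger interactions and changed no call listed. Against TMM, upper quartiles and totals shifted the median of all genes after LPS by −0.31 and −0.66 in WT and −0.36 and −0.80 in KO, and totals shifted the interaction by −0.14. Over all genes, the share of calls that were higher under LPS in KO was 53.4%, 41.6% and 37.9% with TMM, upper quartiles and totals; after LPS it was 47.6%, 32.5% and 21.2% in WT and 48.6%, 33.8% and 20.8% in KO, under PBS 48.6%, 42.2% and 61.6%, and for the interaction 54.2%, 43.1% and 24.4%. Calls by label under PBS numbered 3058 over all genes, 4627 with only the PBS libraries fitted and 1992 without KO PBS replicate 1. A log2 change over 1 left 4390 of 9254 calls after LPS in WT, 5027 of 9635 in KO, 399 by label under PBS, 570 of 4990 under LPS and 325 of 2176 interactions. Depth limits Iigp1 and Tgtp1 in PBS, where 3 counts were the floor.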

Other observations

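Over the 12 libraries, the genes outside the list whose log2 CPM followed the mean of the standardised GTPase levels most closely were Slc28a2, Gtf2f1, Usb1, Ifi47 and Tnip3, with Pearson's r from 0.99959 for Tnip3 to 0.99983 for Slc28a2. Ifi47 is itself an immunity-related GTPase that was not on the list of other GTPases, whereas Slc28a2 is a nucleoside transporter and Tnip3 an inhibitor of NF-κB signalling. The value is a description, because the PBS and LPS libraries form separate clusters that set it.

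The feedback inhibitors of interferon signalling all rose after LPS, 8 of 8 in WT and 8 of 8 in KO, where 36.5% and 38.8% of the genes tested were higher. Under LPS 3 of the 8 were higher in KO and 2 lower, where 22.1% and 19.3% of the genes tested were. The phosphatase Ptpn6 was lower (−0.40 ± 0.05, adjusted p = 1.02e-05 in edgeR) and the phosphatase Ptpn2 higher (0.38 ± 0.08, adjusted p = 0.00123). Usp18, which acts on the type I interferon receptor, was lower in KO under PBS (−0.48 ± 0.11, adjusted p = 0.00638), a call lost without WT PBS replicate 1 or without KO PBS replicate 1 or 2.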
